A study of Mus musculus with 11 samples.

Results

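Chromatin accessibility of CD4 single positive (CD4SP) thymocytes, which are nearly mature helper T cells of the thymus, was compared with that of common lymphoid progenitors (CLP), the bone marrow cells from which T, B and innate lymphoid cells descend. It was measured by ATAC-seq, which uses a transposase to cut open chromatin and calls a region with many cuts a peak. Peaks that overlapped by at least 1 bp in the 2 CD4SP and 3 CLP libraries were merged into intervals, and a library with at least 1 peak in an interval had that interval open. Of the 61804 intervals of these 5 libraries, 10227 (16.6%) were CD4SP-gained, meaning open in both CD4SP and in no CLP library. CLP-lost intervals, open in all 3 CLP and in neither CD4SP library, numbered 5657 (9.15%), and 11731 (18.98%) were shared by all 5 libraries. The other 34189 intervals were open in some libraries of a group only. All 9 accessibility libraries of the study together gave 71400 intervals.

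The labels give C57BL/6 as the strain of every library and name no treatment or gene deletion, and the mice of the study were 4 to 8 weeks old. The CD4SP cells were sorted from thymus, by a gate that the sources used here do not spell out. The CLP were sorted from bone marrow as lineage-negative cells that were IL-7Rα+ and Flt3 high, with intermediate cKit and Sca-1, so the proteins of *Il7r*, *Kit* and *Flt3* were used to pick them, and CD4 gives the CD4SP population its name. Thymic NKT cells and bone marrow innate lymphoid precursors (ILCP, sorted as Lin-IL-7Rα+α4β7+eGFP+) gave 2 libraries each, and these 4 libraries were used only to look at the intervals from outside. The eGFP of the ILCP gate needs a reporter allele, and the mice of the study include a *Zbtb16*-*IRESGFPcre* line, although the labels of the ILCP libraries give the strain alone. Tissue and cell type changed together between CD4SP and CLP and cannot be told apart, nor can a smaller share of cells with an open site and a weaker opening in every cell.

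A lymphoid progenitor keeps several fates open. Its chromatin carries the marks of stem cell and myeloid factors such as PU.1 (encoded by *Spi1*) and Meis1 beside those of early B and T cell genes. In the thymus, Notch signals induce TCF-1 (encoded by *Tcf7*) and GATA3, then Bcl11b, which together switch on the T cell receptor genes and switch off the progenitor genes. Runx, Ets and E proteins, the last binding the E-box, act at both stages.

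CLP replicate 1 stood apart from the other libraries. It held 19343 peaks, while CLP replicates 2 and 3 held 41535 and 40136 and the CD4SP libraries 33648 and 37909. Among intervals closed in both CD4SP libraries, 10250 were open in CLP replicates 2 and 3 but not in replicate 1, whereas the other 2 ways of leaving out 1 CLP library gave 63 and 31. The CLP-lost class was therefore set mainly by what was called in CLP replicate 1. Without it the class held 15908 intervals, the shared class 17612 and the CD4SP-gained class 10247. CD4SP-gained intervals made up 64.4% of gained plus lost intervals with all libraries and 39.2% without CLP replicate 1, so which class is the larger turned on this library. Lost counts of the gene groups are given below with and without it, and a lost count printed for a single gene is followed by its value without that library where the 2 differ. The methods state read numbers only as a range that covers every library, so depth per library is unknown, and an interval without a peak is one where none was called.

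The sequences at the centre of the best scored gained and lost intervals of the gene groups are printed first, because the classes differed in the short motifs they held. They are the central 200 bp of the interval away from exons and start sites, and not already used for another group, with the best mean rank of score in its group, read from the plus strand of GRCm38.p6 (mm10). Capitals mark matches, on either strand, to 6 sets of letters. The RUNX factors read TGTGGT, the factors of the TCF/LEF family read CTTTGAT, and GATA factors read AGATAA. For the Ets family the letters were AGGAAGT, and for its member PU.1 they were GAGGAAG, so that one stretch of bases can match both. The sixth was the E-box form CAGCTG. The first 5 are CD4SP-gained intervals near *Trat1*, *Cd28*, *Nfatc2*, *Bcl11b* and *Bcl2*, and the last 3 are CLP-lost intervals near *Meis1*, *Cd33* and *Syk*.
Trat1 intron, chr16:48745579-48745778: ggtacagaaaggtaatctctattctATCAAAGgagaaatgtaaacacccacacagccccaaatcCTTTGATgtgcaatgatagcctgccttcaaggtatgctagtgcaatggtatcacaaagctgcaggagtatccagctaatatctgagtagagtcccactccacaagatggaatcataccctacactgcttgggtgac
Cd28 downstream, chr1:60777261-60777460: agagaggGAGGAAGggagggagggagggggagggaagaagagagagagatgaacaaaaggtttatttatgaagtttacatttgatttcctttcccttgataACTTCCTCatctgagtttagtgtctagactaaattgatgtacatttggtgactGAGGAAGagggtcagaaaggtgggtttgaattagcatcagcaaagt
Nfatc2 intron, chr2:168575138-168575337: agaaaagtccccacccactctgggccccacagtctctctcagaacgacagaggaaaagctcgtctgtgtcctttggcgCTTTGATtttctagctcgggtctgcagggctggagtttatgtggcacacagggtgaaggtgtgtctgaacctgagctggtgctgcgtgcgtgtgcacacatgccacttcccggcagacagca
Bcl11b intron, chr12:107920916-107921115: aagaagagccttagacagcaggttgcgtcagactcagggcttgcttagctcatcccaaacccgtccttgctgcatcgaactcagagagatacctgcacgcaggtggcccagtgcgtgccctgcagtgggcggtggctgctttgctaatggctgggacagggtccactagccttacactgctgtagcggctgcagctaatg
Bcl2 intron, chr1:106600854-106601053: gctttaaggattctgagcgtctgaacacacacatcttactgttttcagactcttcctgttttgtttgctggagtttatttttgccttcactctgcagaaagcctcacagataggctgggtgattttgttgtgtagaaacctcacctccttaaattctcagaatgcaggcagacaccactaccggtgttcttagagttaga
Meis1 intron, chr11:18924908-18925107: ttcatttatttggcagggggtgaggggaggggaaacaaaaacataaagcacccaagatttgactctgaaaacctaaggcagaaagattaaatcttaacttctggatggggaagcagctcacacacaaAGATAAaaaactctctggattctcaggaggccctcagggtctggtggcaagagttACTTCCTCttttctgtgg
Cd33 upstream, chr7:43554057-43554256: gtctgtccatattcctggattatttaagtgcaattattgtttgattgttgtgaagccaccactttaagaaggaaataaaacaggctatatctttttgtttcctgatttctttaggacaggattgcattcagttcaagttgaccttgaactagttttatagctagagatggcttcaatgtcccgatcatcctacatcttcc
Syk upstream, chr13:52572362-52572561: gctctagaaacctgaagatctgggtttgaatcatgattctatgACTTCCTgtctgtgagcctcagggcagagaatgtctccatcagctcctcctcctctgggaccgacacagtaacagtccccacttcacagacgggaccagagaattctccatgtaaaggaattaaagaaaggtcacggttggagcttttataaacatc

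TCF/LEF letters stood in 2 of these 5 gained windows and in 0 of the 3 lost ones. The *Trat1* window held them at positions 26 and 65, on opposite strands, and the *Nfatc2* window at position 79, all counted from 1 at the 5′ end of the printed run. PU.1 or ETS letters stood in 2 of the 3 lost windows, those of *Meis1* and *Syk*, and in 1 of the 5 gained windows, that of *Cd28*. The *Meis1* window held AGATAA at position 128 as well. No match lay in the *Bcl11b*, *Bcl2* and *Cd33* windows, which says only that these letters are not in those 200 bp. The *Bcl11b* interval was called in both NKT and in no ILCP library, whereas the *Meis1* interval was called in both ILCP and in no NKT library.

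Gained and lost intervals were mostly distal, unlike shared ones. Of the CD4SP-gained intervals, 9.78% lay within 1 kb of an annotated transcription start site, 37.7% in introns, 41.9% between genes and 10.6% in exons. CLP-lost intervals had 14.4% at start sites, 34.2% in introns and 42.5% between genes. Of the shared intervals, 61.5% lay at start sites. The median distance to the nearest start site was 15917 bp for gained and 18145 bp for lost intervals. Gained intervals had a median width of 969 bp, lost ones 1225 bp and shared ones 1711 bp. Base composition followed the place, with a median GC content of 47.5% in gained, 49.0% in lost and 57.5% in shared intervals over their central 200 bp, and 3.201, 3.52 and 11.6 CpG dinucleotides on average. Median scores of gained intervals were 255 and 292 in the CD4SP libraries, below the 742 and 1043 of shared intervals in the same libraries. Lost intervals had median scores of 209, 602 and 564 in CLP replicates 1, 2 and 3, below the 346, 995 and 960 of shared ones. Counted from the top, median ranks were 61.6% and 57.7% for gained intervals and 63.3%, 31.5% and 33.0% for lost ones.

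**Figure D1:**
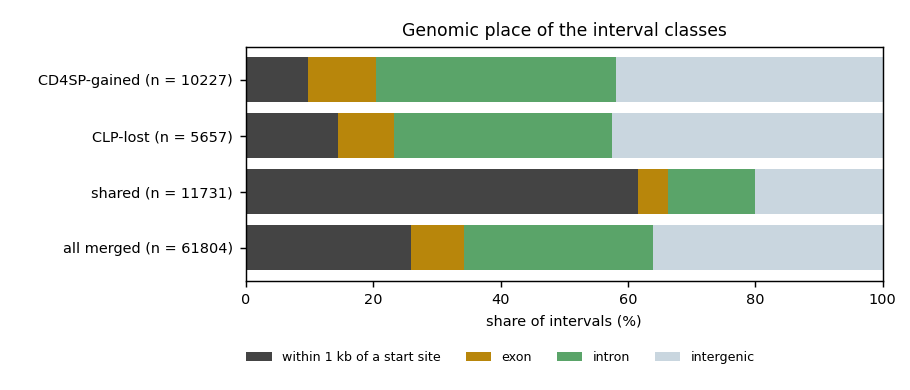
Horizontal bars give the share of intervals in % (x axis) that lay within 1 kb of a start site, in an exon, in an intron or between genes, for each class of intervals and for all merged intervals (y axis). Start sites made up 61.5% of shared intervals but 9.78% of CD4SP-gained and 14.4% of CLP-lost intervals.

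TCF/LEF and GATA letters were more common in gained than in lost intervals, and letters of PU.1, of RUNX and of the E-box CAGCTG were more common in lost intervals. These shares count intervals with at least 1 match in the central 200 bp on either strand. TCF-1 and Lef1, the HMG-box factors of T cells, read CTTTGAT, which stood in 8.54% of gained, 2.21% of lost and 1.80% of shared intervals, against 3.63% of all merged intervals. GATA3 reads AGATAA, present in 13.1% of gained, 7.48% of lost and 4.71% of shared intervals (8.53% of all). The letters of PU.1 were present in 23.2% of lost, 12.9% of gained and 12.5% of shared intervals (16.1% of all). RUNX letters were the most common of these, at 33.1% of lost, 23.4% of gained and 14.95% of shared intervals (22.5% of all). The E-box CAGCTG stood in 20.5% of lost, 12.3% of gained and 13.04% of shared intervals (14.8% of all). The other E-box form, CAGGTG, was about equally common, at 17.3% of gained and 15.4% of lost intervals (16.02% of all). ETS letters were at 17.7% of gained and 21.3% of lost intervals (16.1% of all). Over 1 kb from start sites the order of gained and shared intervals turned for RUNX and PU.1 letters. RUNX letters were in 23.6% of gained and 25.1% of shared intervals there, and PU.1 letters in 13.03% and 16.97%. The order stayed for TCF/LEF letters, at 8.90% and 2.48%, for GATA letters, at 13.15% and 7.55%, and for CAGCTG, at 12.4% and 17.1%.

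The longer motif of CTCF, a protein that holds chromatin loops, was searched by 8 fixed bases with gaps between them. It was present in 6.03% of gained and 1.54% of lost intervals, and in 6.24% of all merged intervals. The lost share was 2.88% without CLP replicate 1, so that gained over lost came to 2.09 in place of 3.92. Gained intervals were thus close to the background for CTCF, and the lost ones were below it. EBF letters (CCCNNGGG), read by the B cell factor EBF1, were in 4.41% of gained, 6.91% of lost and 10.5% of shared intervals (7.13% of all). Over 1 kb from start sites these were 4.04%, 6.07% and 6.62%. AP-1 (TGANTCA) was at 7.67% and 7.55% (6.46% of all), and NFAT (TGGAAA) at 16.4% and 16.1% (14.8% of all), of gained and lost intervals. Motif shares by class carry no test, because the peaks that made the classes come from the same libraries and neighbouring intervals are not independent. For the E-box CAGCTG and for RUNX, TCF/LEF, PU.1, GATA and CTCF letters the gained to lost direction was the same over 1 kb from start sites, after standardizing to the GC content of all intervals, and without CLP replicate 1, where TCF/LEF letters were at 8.53% of gained and 2.21% of lost intervals. RUNX letters were at 23.4% and 29.6% without that library, a smaller gap than with it. Over whole intervals, which are longer in the lost class, the direction turned for GATA, at 46.6% of gained and 52.8% of lost intervals. The contrast shrank there for TCF/LEF letters, at 22.2% of gained and 18.35% of lost intervals, 1.21 times as many where the central 200 bp gave 3.86 times. For CTCF it fell to 1.48 times, at 11.8% and 7.96%.

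The matches gathered at the centre of the intervals. In 50 bp bins, TCF/LEF matches were in 2.52% and 2.58% of gained intervals in the bins on either side of the centre, and in 0.704% and 0.997% in the outermost bins, centred 475 bp away. Lost intervals held them in 0.619% and 0.477% at the centre, no more than at the edges (0.831% and 0.760%). PU.1 matches peaked at the centre in both classes, at 7.37% and 7.12% of lost intervals, against 2.07% and 2.32% at the edges, and at 3.87% and 4.04% of gained ones, against 1.94% and 1.995%. RUNX matches did so too, at 10.98% and 11.8% of lost and 7.12% and 7.25% of gained intervals. GATA matches were at 3.56% and 3.67% of gained intervals at the centre and at 1.86% and 1.78% of lost ones, where they were fewer than at the edges (3.25% and 3.02%).

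**Figure D2:**
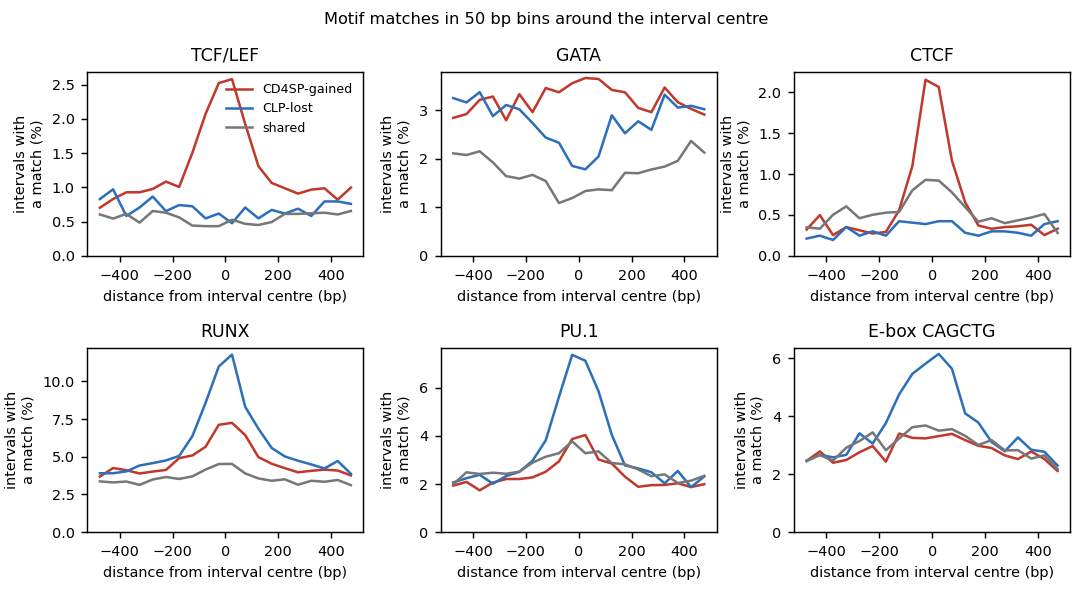
Each panel gives, for 1 motif, the share of intervals with a match in % (y axis) in 50 bp bins by distance from the interval centre in bp (x axis), for CD4SP-gained (red), CLP-lost (blue) and shared (grey) intervals. TCF/LEF and CTCF matches peak at the centre of gained but not of lost intervals. PU.1 and RUNX matches peak at the centre of both, higher in lost intervals, while GATA matches dip at the centre of lost intervals. CAGCTG matches peak at the centre of lost intervals, and in gained ones the centre lies above the edges by less.

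Over all peaks of each library, without the classes, 10 of the 20 motifs searched separated the CD4SP from the CLP libraries with no overlap (50% of those tested), which is the background for any 1 of them. TCF/LEF letters were in 4.51% and 4.36% of CD4SP peaks and in 1.72%, 2.12% and 2.08% of CLP peaks, a difference of 2.46 percentage points between the means of 4.43% ± 0.111 (SD, n = 2) and 1.97% ± 0.219 (SD, n = 3). PU.1 letters were in 13.4% and 12.4% of CD4SP peaks and in 17.7%, 17.9% and 17.7% of CLP peaks. RUNX letters were in 19.05% and 18.97% of CD4SP peaks against 23.5%, 22.8% and 22.7% in CLP. The values for GATA were 8.52% and 8.41% in CD4SP and 5.18%, 6.96% and 7.01% in CLP. CAGCTG was in 12.9% and 12.8% of CD4SP and in 16.7%, 16.1% and 15.99% of CLP peaks. CTCF letters were in 5.96% and 7.81% of CD4SP and in 3.26%, 4.52% and 4.35% of CLP peaks, and here the 2 CD4SP libraries lay farther from each other than CD4SP replicate 1 lay from the nearest CLP library. With an equal number of highest-scoring peaks from each library the CTCF shares overlapped, at 2.82% and 2.83% in CD4SP and 3.26%, 1.77% and 1.74% in CLP, and the difference went from 2.84 to 0.571 points. ETS, EBF and CAGGTG letters overlapped too at equal numbers, whereas the letters of TCF/LEF, GATA, PU.1, RUNX and C/EBP and the E-box CAGCTG still separated the groups. Over whole peaks the groups were separate for TCF/LEF, PU.1, ETS, EBF and CTCF letters and overlapped for GATA, RUNX, C/EBP and both E-box forms. Over all peaks, for the motifs of TCF/LEF, GATA, PU.1, CTCF and RUNX and for the E-box CAGCTG, the exact permutation test gave p = 0.1, two-sided, the smallest that 2 against 3 libraries allow, and 0.222 after adjustment over the 20 motifs, so no motif passed the threshold of 0.05.

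**Figure D3:**
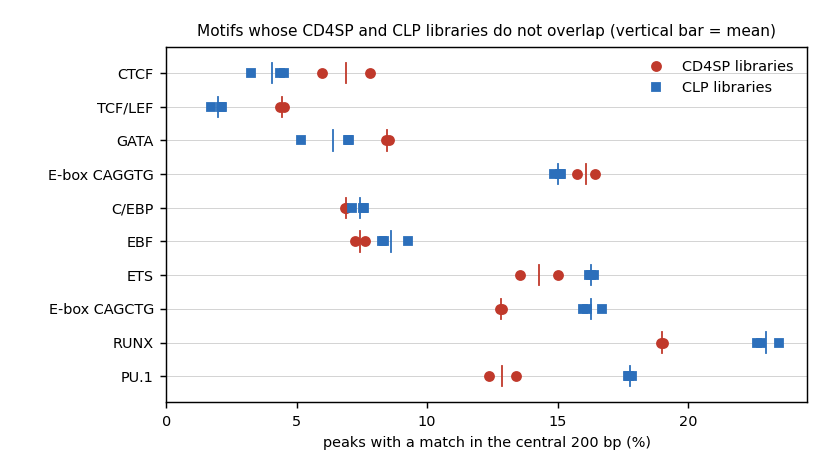
Points give the share of a library's peaks with a match in the central 200 bp in % (x axis) for the 10 motifs (y axis) whose 2 CD4SP libraries (red circles) and 3 CLP libraries (blue squares) did not overlap, with vertical bars at the group means. CTCF, TCF/LEF, GATA and CAGGTG lie higher in CD4SP, and PU.1, RUNX, CAGCTG, ETS, EBF and C/EBP lie higher in CLP. With equal numbers of peaks, which are not plotted, CTCF, EBF, ETS and the E-box CAGGTG overlapped.

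NKT and ILCP libraries, which took no part in the classes, showed where else the intervals were open. At CD4SP-gained intervals a peak was called in 70.1% and 74.8% of cases in the NKT libraries and in 13.3% and 12.6% in the ILCP libraries. The 2 groups did not overlap and differed by 59.5 percentage points (72.4% ± 3.29 against 12.9% ± 0.491, SD, n = 2 each). CLP-lost intervals were open in 10.9% and 12.6% of cases in NKT and in 42.8% and 42.7% in ILCP, a difference of -31.1 points. Of all 61804 merged intervals, 48.7% and 54.5% were open in NKT and 33.8% and 32.96% in ILCP, which is the background for both classes. The exact permutation test gave p = 0.333 for both, two-sided, which is the smallest that 2 against 2 libraries allow. Without CLP replicate 1 the lost intervals were open in 8.08% and 10.2% in NKT and in 27.7% and 27.2% in ILCP, where 33.8% and 32.99% of all intervals were open. The ILCP shares at lost intervals thus lay above the share over all intervals with CLP replicate 1 and below it without. With CLP replicate 1 in the classes, 18.5% of gained and 49.0% of lost intervals were open in none of these 4 libraries. The same held for 34.3% of all merged intervals and 47.95% of those outside the 3 classes. ILCP libraries held fewer peaks (26328 and 25771) than NKT libraries (34701 and 38793). When the best scored peaks were taken in equal number from every library, gained intervals were open in 72.9% and 72.4% in NKT and in 19.1% and 18.9% in ILCP. NKT cells come from the thymus like CD4SP, and ILCP from the bone marrow like CLP, so stage, lineage and tissue cannot be told apart here.

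**Figure D4:**
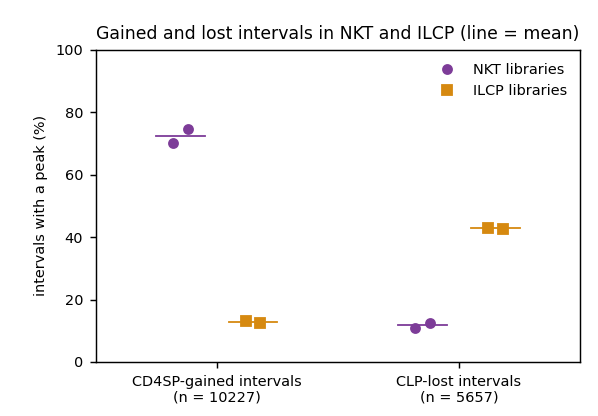
Points give the share of CD4SP-gained (left) and CLP-lost (right) intervals that held a peak, in % (y axis), in each of the 2 NKT (purple circles) and 2 ILCP (orange squares) libraries, with lines at the group means. Gained intervals were open in 70.1% and 74.8% in NKT and lost intervals in 42.8% and 42.7% in ILCP.

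The score of the peak caller at shared intervals, which the classes did not use to tell the groups apart, also differed between CD4SP and CLP. With limma on quantile-normalized log2 scores, 2270 of the 11731 shared intervals (19.4%) were higher in CD4SP and 2265 (19.3%) higher in CLP at a Benjamini-Hochberg adjusted p of at most 0.05. Leaving out a CD4SP library, after which the lone CD4SP library is taken to vary like the CLP libraries, lowered these to 993 and 1393 without CD4SP replicate 1 and to 607 and 990 without replicate 2. Scores stop near 3100 for the strongest peaks, which 1621 of these intervals reached in at least 1 library, so differences there are compressed.

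The 10 largest rises in CD4SP among shared intervals lay nearest to the start sites of *Bhmt*, *Drd3*, *Tle4*, *Rora*, *Lrrc74a*, *Ifng*, *Zpbp2*, *Gbp9*, *Pde11a* and *Dpp4*. These intervals lay from 0 to 160188 bp from the start site that names them. The interval nearest to *Tle4*, which encodes a corepressor that works with TCF-1, 96805 bp from the start site, had deposited scores of 3010 and 2896 in CD4SP and of 156, 244 and 360 in CLP. Its difference was 3.40 on the log2 scale (SE 0.316, limma adjusted p = 0.000488). The interval nearest to *Ifng*, which encodes interferon gamma, 21071 bp away, had 1774 and 2011 in CD4SP and 129, 207 and 302 in CLP, a difference of 3.23 on the log2 scale (SE 0.304). An interval in an intron of *Rora*, a nuclear receptor gene of T and innate lymphoid cells, had 2152 and 2403 against 155, 242 and 312. The interval nearest to *Zpbp2* also lies upstream of *Ikzf3*, which encodes Aiolos, an Ikaros family factor of lymphocytes, and had 1463 and 2566 in CD4SP against 130, 322 and 224 in CLP. All CD4SP scores of these 4 intervals were above all CLP scores, which follows from their choice as the largest rises and held for 27.9% of all shared intervals.

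Among the largest falls were intervals nearest to *Slc24a3*, *Mfap3l*, *Crybg3*, *Nid1*, *Cacnb2*, *Cfap45*, *Eml6*, *Dhx15* and *Ptprk*, and those of *Nid1* and *Dhx15* were the ones between genes, the others being at start sites. At *Slc24a3*, a gene for an ion exchanger, the scores were 143 and 234 in CD4SP and 1021, 3230 and 3215 in CLP, a difference of -3.84 on the log2 scale (SE 0.306, limma adjusted p = 0.000488). *Ptprk*, which encodes a receptor phosphatase, had 136 and 172 in CD4SP and 507, 3100 and 3100 in CLP at its start site. CLP replicate 1 had the lowest CLP score in each of these intervals. That score was still above both CD4SP scores, which follows from their choice as the largest falls and held for 9.9% of all shared intervals.

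At the level of genes, an interval was given to a protein-coding gene when it lay in the gene or within 20 kb of either end. Of 21924 protein-coding genes, 5616 (25.6%) held more gained than lost intervals and 2594 (11.8%) more lost than gained. Gained intervals alone were held by 4977 genes (22.7%), lost ones alone by 2371 (10.8%) and both kinds by 1458 (6.65%). A gained interval lay within 1 kb of at least 1 annotated transcript start in 975 genes (4.45%) and a lost one in 790 (3.6%). These are the shares to read the gene groups against. The balance over all genes turned round without CLP replicate 1, with more gained in 4444 (20.3%) and more lost in 5947 (27.1%), and group counts given without that library are to be read against those. In the total of a group an interval near several of its genes counts once. Since the peaks themselves set the classes, the counts per gene describe the libraries and were not tested. Genes less than 20 kb from each other share intervals, and long genes hold more.

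All 8 genes of the T cell receptor complex held more gained than lost intervals, 22 gained and 2 lost intervals in all when those shared by neighbouring genes are counted once. *Cd3g*, *Cd3d* and *Cd3e*, whose products form the CD3 signalling unit of the receptor, lie side by side and share intervals. Around *Cd3g*, 6 and 6 intervals were open in CD4SP and 1, 2 and 2 in CLP. The start site of *Cd3e* was in a gained interval scored 490 and 1048 in CD4SP. A gained interval lay at the start site of *Cd3d* as well, and a shared interval over the far end of that gene, where shorter transcripts start, was higher in CD4SP, with 975 and 1837 against 223, 494 and 443 (1.64 on the log2 scale, SE 0.308, limma adjusted p = 0.00453). *Trac*, the constant segment of the receptor's alpha chain, held 4 gained and 0 lost intervals, with 6 and 9 open in CD4SP and 2 in each CLP library. Around *Trat1*, an adaptor that binds the receptor complex, 10 and 10 were open in CD4SP and 3, 6 and 6 in CLP. Near *Cd247*, the zeta chain, 14 and 15 were open in CD4SP and 2, 9 and 9 in CLP. A shared interval in an intron of *Cd247* was nevertheless lower in CD4SP, at 156 and 163 against 388, 727 and 704 (-1.88 on the log2 scale, SE 0.315, limma adjusted p = 0.00297). Of the 9 shared intervals of the group 2 were higher in CD4SP, those near *Cd3d* and *Trac*, and 2 were lower, those of *Cd247* and *Trat1*. Over all shared intervals 19.4% were higher in CD4SP and 19.3% lower, and the counts of the group lay near these shares. In each of the 8 genes both CD4SP libraries had more open intervals than any CLP library, as in 16.3% of all protein-coding genes. Without CLP replicate 1 the group held 22 gained and 6 lost intervals, still with more gained in all 8, and the lost ones of *Trat1* went from 1 to 4 and those of *Cd247* from 0 to 1.

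Over the whole *Tcra*/*Tcrd* locus, from 52427928 to 54224206 on chromosome 14, 19 of 39 intervals were gained and 0 lost (1 without CLP replicate 1). The 2 CD4SP libraries had 21 and 35 of them open, the CLP libraries 1, 3 and 3, the NKT libraries 7 and 13 and the ILCP libraries 1 and 1. Gained intervals of this locus had median ranks from the top of 77.6% and 59.7% in CD4SP replicates 1 and 2. Over all gained intervals these were 61.6% and 57.7%. At *Tcrb* the balance was less one-sided, with 7 gained and 4 lost of 38 intervals (10 lost without CLP replicate 1), and 22 and 22 open in CD4SP against 10, 24 and 23 in CLP. *Tcrg* held 0 gained and 0 lost of 8, and 4 lost without CLP replicate 1. T cells cut and rejoin these loci, and their V segments resemble each other; what this does to the peak calls was not tested.

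Coreceptors and other T cell surface proteins held 46 gained and 6 lost intervals in sum over 15 genes, and 13 of the 15 held more gained than lost. *Cd4*, the coreceptor that names the population, held 3 gained and 0 lost intervals, 1 of them at its start site, with 8 and 8 intervals open in CD4SP and 1, 4 and 4 in CLP. The strongest, in an intron, scored 963 and 1320 and was also open in all NKT and ILCP libraries. *Cd8a* and *Cd8b1*, which encode the other coreceptor and are silent in helper T cells, held 1 and 2 gained intervals. Around *Cd28*, which gives the costimulatory signal, 10 and 12 intervals were open in CD4SP and 3, 3 and 2 in CLP. Its best scored gained interval, printed above, had scores of 1537 and 2076, among the highest 7.05% and 5.89% of the peaks. *Ctla4*, the inhibitory counterpart of *Cd28*, held 7 gained and 1 lost, with 7 and 8 open in CD4SP and 2 in each CLP library. *Cd69* and *Cd96* were the exceptions. *Cd96* held 1 gained and 1 lost interval, and 2 lost without CLP replicate 1. *Cd69*, an early activation marker, held 0 gained and 0 lost, but a shared interval upstream of it was higher in CD4SP, at 2724 and 2763 against 894, 998 and 958 (1.30 on the log2 scale, SE 0.364, limma adjusted p = 0.0220). Lost intervals of the group numbered 9 without CLP replicate 1, and 13 genes held more gained than lost and 1 the reverse.

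Genes of signalling below the receptor went the same way in 19 of 20 cases, with 69 gained and 12 lost intervals. *Lat*, an adaptor, was the exception, with 0 gained and 0 lost. *Prkcq*, a kinase of the T cell synapse, held 10 gained and 2 lost intervals, and 18 and 17 were open in CD4SP against 5, 8 and 7 in CLP. *Cblb*, a ubiquitin ligase that restrains the signal, held 9 gained and 1 lost (3 without CLP replicate 1), with 20 and 17 open in CD4SP and 7, 12 and 11 in CLP. *Themis*, required for selection in the thymus, had 5 and 4 open in CD4SP and 0, 2 and 2 in CLP, and its start site was gained. It held 2 gained and 0 lost intervals (1 lost without CLP replicate 1). *Lck*, the kinase that starts the signal, held 1 gained interval and 4 shared ones. Against 19.4% of all shared intervals, 2 of its 4 were higher in CD4SP. One of these, at the inner start sites of *Lck*, 15.3 kb from the outermost one, scored 553 and 1073 in CD4SP and 140, 354 and 276 in CLP (1.51 on the log2 scale, SE 0.298, limma adjusted p = 0.00544). A transcript start was gained in 8 of the 20 genes and lost in 0. Without CLP replicate 1, 14 of the 20 held more gained than lost intervals and 2 the reverse, and 31 intervals were lost.

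Transcription factors of the T lineage held 92 gained and 14 lost intervals over 20 genes, with more gained than lost in 15. *Tcf7* held 5 gained and 0 lost, 6 and 10 intervals being open in CD4SP and 0, 2 and 2 in CLP. The interval at its start site was gained but weak in 1 of the libraries (scores 134 and 569). *Bcl11b* also held 5 gained and 0 lost, with 8 and 12 open in CD4SP and 0, 2 and 1 in CLP, and all 5 were in introns and open in both NKT and in neither ILCP library. The interval at its start site belonged to none of the 3 classes. *Lef1*, the relative of *Tcf7*, held 8 gained and 0 lost, with 14 and 17 open in CD4SP and 3, 5 and 6 in CLP. *Satb1*, a chromatin organizer of thymocytes, held 8 gained and 0 lost (1 without CLP replicate 1), with 12 and 14 open against 2, 4 and 4. The CD4SP libraries lay above all CLP libraries for each of these 4 genes (16.3% of all genes), but not for *Gata3* and *Bach2* of the same group. Over the group, 44 intervals were lost without CLP replicate 1, and 12 genes held more gained and 4 more lost intervals.

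Other factors of this group were mixed. *Gata3* held 0 gained and 0 lost intervals (1 lost without CLP replicate 1), 4 shared ones, and 5 and 5 open in CD4SP against 4, 7 and 7 in CLP. An intronic shared interval of *Gata3* was higher in CD4SP, at 1162 and 884 against 215, 489 and 403 (1.28 on the log2 scale, SE 0.358, limma adjusted p = 0.0215). *Ets1*, an Ets factor of lymphocytes, held 10 gained and 0 lost intervals, but 8 lost ones without CLP replicate 1, so its one-sided count rested on that library. Against 19.3% of all shared intervals, 2 of its 4 were lower in CD4SP. One of these scored 473 and 636 in CD4SP and 1711, 2284 and 2252 in CLP (-2.01 on the log2 scale, SE 0.277, limma adjusted p = 0.00157). *Foxp1*, which keeps naive T cells quiescent, held 20 gained and 6 lost (11 without CLP replicate 1), with 31 and 32 open in CD4SP and 9, 19 and 24 in CLP, over 597 kb. *Bach2*, a repressor active in both B and T cells, held 8 gained and 4 lost, and its library counts overlapped (20 and 17 against 9, 19 and 21). It held 8 gained and 10 lost without CLP replicate 1, so its direction turned on that library. *Tcf12*, which encodes an E protein, held 1 gained and 2 lost, with 1 and 2 open in CD4SP and 2, 3 and 4 in CLP.

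**Figure D5:**
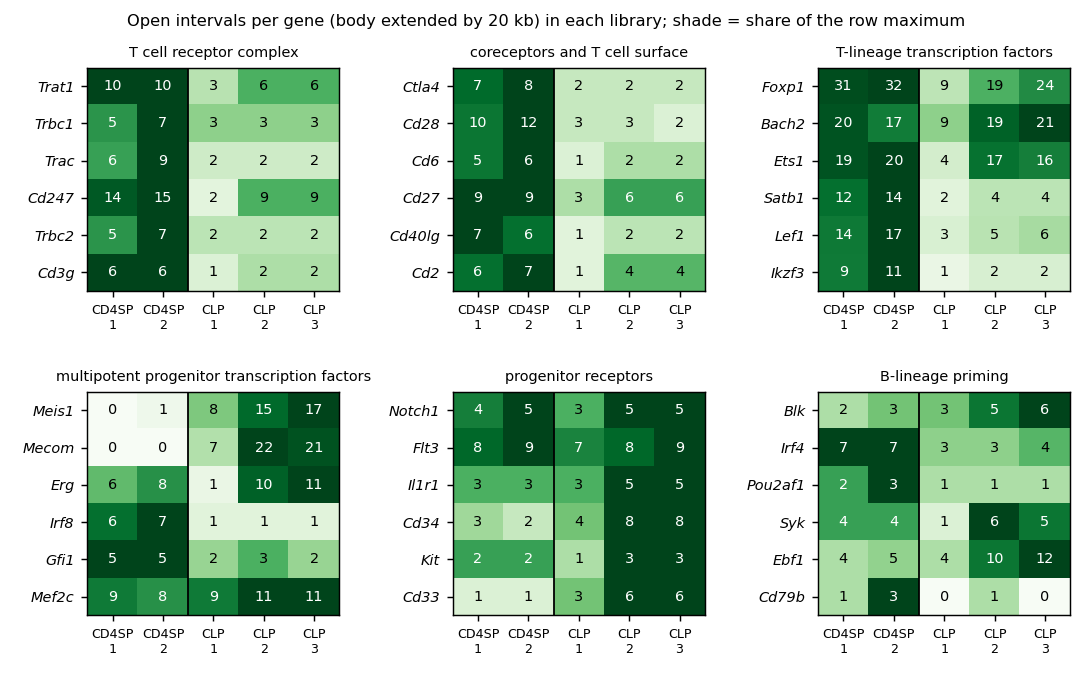
Numbers give the open intervals within each gene extended by 20 kb (rows) in the 2 CD4SP and 3 CLP libraries (columns), for the 6 genes of each of 6 groups with the most gained and lost intervals, and darker green marks a larger share of the row's highest number. *Tcf7* and *Bcl11b* are outside the 6 shown for their group. *Meis1* and *Mecom* had 0 to 1 open intervals in CD4SP and 7 to 22 in CLP, while *Cd3g*, *Trac*, *Cd28*, *Lef1* and *Satb1* had more in both CD4SP than in any CLP library.

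Genes of egress, homing and survival held 30 gained and 7 lost intervals, with more gained than lost in 13 of 16. *Ccr9*, a homing receptor for gut and thymus, held 4 gained and 0 lost (1 without CLP replicate 1), with 8 and 16 open in CD4SP and 2, 4 and 4 in CLP. *Ccr7*, which guides cells to the medulla and lymph nodes, held 3 gained and 0 lost (1 without CLP replicate 1), with 6 and 9 against 1, 5 and 6, so the second group reached the lower CD4SP value. *Bcl2*, the survival factor, held 6 gained and 4 lost, and 6 of each without CLP replicate 1. *S1pr1*, the receptor by which mature thymocytes leave, and *Klf2*, its activator, held 0 gained intervals, and their shared start-site intervals were lower in CD4SP. For *S1pr1* the scores were 572 and 1003 against 528, 2456 and 2284 (-1.21 on the log2 scale, SE 0.285, limma adjusted p = 0.0109), so that CLP replicate 1 lay below both CD4SP libraries before normalization. For *Klf2* they were 883 and 2121 against 2874, 3100 and 3100 (-1.10 on the log2 scale, SE 0.245, limma adjusted p = 0.00876). Without CLP replicate 1, 7 of the 16 genes held more gained than lost and 3 the reverse, with 30 gained and 18 lost intervals.

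Transcription factors of multipotent progenitors held 16 gained and 27 lost intervals over 20 genes, with more lost than gained in 9 and the reverse in 5. Without CLP replicate 1 these became 17 gained and 79 lost, 16 genes and 2. *Meis1*, a homeobox factor of stem cells, held 0 gained and 7 lost (14 without CLP replicate 1), with 0 and 1 open in CD4SP and 8, 15 and 17 in CLP. The interval at its start site scored 608, 3100 and 3100 in CLP. *Mecom*, a factor of stem cell renewal, also held 0 gained and 7 lost, with none open in CD4SP and 7, 22 and 21 in CLP, and 20 lost intervals without CLP replicate 1. The interval at a group of its transcript starts, 38.2 kb inside the outermost one, was lost and scored 785, 3100 and 3100. For *Meis1* and *Mecom* both CD4SP libraries had fewer open intervals than any CLP library, as in 7.28% of all protein-coding genes. *Cebpa*, which drives myeloid fate, held 2 lost (3 without CLP replicate 1) and 0 gained, with 0 and 1 open in CD4SP and 3, 4 and 4 in CLP. *Tal1*, of stem and red cell progenitors, held 2 lost (4 without CLP replicate 1) and 0 gained.

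Several members of this group held gained intervals or kept shared ones. *Spi1*, the PU.1 gene, had a lost interval at the starts of shorter transcripts, 13.7 kb inside the gene (243, 597 and 691 in CLP), and a shared one at its outermost start that was lower in CD4SP, at 140 and 130 against 434, 997 and 964 (-2.47 on the log2 scale, SE 0.290, limma adjusted p = 0.000871), yet also 1 gained interval in an intron. It held 1 lost, and 3 without CLP replicate 1. *Bcl11a*, a factor of early B and dendritic progenitors, held 0 gained and 2 lost intervals, and 9 lost without CLP replicate 1. At its start site the shared interval scored 404 and 618 in CD4SP and 590, 3100 and 3100 in CLP (-2.17 on the log2 scale, SE 0.343, limma adjusted p = 0.00239). *Mycn*, which encodes the transcription factor N-Myc, had a shared start-site interval at 400 and 420 against 698, 3100 and 3100 (-2.47 on the log2 scale, SE 0.310, limma adjusted p = 0.00113). *Irf8*, known for myeloid and B cell roles, held 4 gained (5 without CLP replicate 1) and 0 lost, with 6 and 7 open in CD4SP and 1 in each CLP library. *Gfi1*, a repressor used by stem cells and by T cells, held 3 gained and 0 lost, with 5 and 5 open against 2, 3 and 2. *Erg*, an Ets factor of stem cells, held 4 gained and 1 lost, and 4 gained and 6 lost without CLP replicate 1. At least 1 transcript start was lost in 6 of the 20 genes (*Spi1*, *Mecom*, *Lyl1*, *Meis1*, *Bcl11a* and *Mef2c*) and gained in 1, *Irf8*. Of the 20 shared intervals in the group, 9 (45%) were higher in CLP and 7 (35%) in CD4SP, against 19.3% and 19.4% of all shared intervals.

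Progenitor receptors held 11 gained and 16 lost intervals over 17 genes, with 5 genes on the lost side and 4 on the gained side (11 gained and 29 lost intervals, and 10 and 2 genes, without CLP replicate 1). The start sites of *Kit*, *Flt3* and *Cd34* were lost. *Kit*, the stem cell factor receptor by which the CLP were sorted, had a start-site interval scored 200, 1144 and 1203 in CLP, which was open in both ILCP libraries and in NKT replicate 2, and also 2 gained intervals beyond its end. It held 1 lost interval, and 3 without CLP replicate 1. *Flt3*, another cytokine receptor of the CLP gate, had a start-site interval scored 875, 3136 and 2777, and 2 gained intervals. *Cd34*, a sialomucin of stem cells, held 3 lost (4 without CLP replicate 1) and 0 gained, with 3 and 2 open in CD4SP and 4, 8 and 8 in CLP. *Cd93*, a marker of early lymphoid and myeloid progenitors, kept a shared start-site interval that was lower in CD4SP, at 285 and 418 against 666, 3100 and 3100 (-2.68 on the log2 scale, SE 0.324, limma adjusted p = 0.000955). *Notch1*, the receptor that starts T cell fate, held 2 gained and 2 lost (3 without CLP replicate 1). *Il7r*, named in the CLP gate and also used by CD4SP cells, held 1 gained, 0 lost (1 without CLP replicate 1) and 1 shared interval, with 5 and 5 open in CD4SP and 1, 4 and 3 in CLP.

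The B-lineage genes that CLP begin to open showed no one-sided pattern, with 11 gained and 7 lost intervals over 16 genes, 5 on the gained and 3 on the lost side. They held, without CLP replicate 1, 11 gained and 25 lost intervals, with 4 genes on the gained and 8 on the lost side. *Ebf1*, the factor that specifies B cells, held 1 gained and 1 lost (7 without CLP replicate 1) and had 4 and 5 open in CD4SP and 4, 10 and 12 in CLP, and its start site was shared and lower in CD4SP, at 303 and 416 against 326, 781 and 814 (-0.96 on the log2 scale, SE 0.281, limma adjusted p = 0.0259). *Pax5*, which fixes B cell identity, had 0 and 1 open in CD4SP and 0, 4 and 4 in CLP, with 0 lost by the rule and 3 without CLP replicate 1. *Blk*, a B cell kinase, held 3 lost (5 without CLP replicate 1) and 1 gained. *Irf4*, used by B and T cells alike, held 3 gained and 0 lost, and both of its shared intervals were higher in CD4SP, as were 19.4% of all shared intervals. The recombination enzymes *Rag1* and *Rag2*, which lie side by side and cut the receptor genes, shared 1 lost interval at the *Rag1* start site (386, 565 and 582 in CLP) and 1 gained interval, in an intron, that scored 366 and 441 in CD4SP. With *Dntt*, which adds bases at the cut ends, they held 4 gained and 1 lost interval, each counted once, and 4 gained and 6 lost without CLP replicate 1.

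The genes with the most gained or lost intervals included some very long ones. *Gm20388*, a model of 4435 kb, led the gained count (47) and stood among the first 10 of the lost count (9, or 24 without CLP replicate 1). The other genes with the most gained intervals were *Gm20696* (25) and *Foxp1* (20), which overlap, *Sox5* (16), *Pakap* (14), *Pde4d* (14), *Nsmce2* (13), *Itga9* (13), *Inpp4b* (13) and *Sgms1* (12). *Itga9*, an integrin gene, had 17 and 22 open intervals in CD4SP and 1, 9 and 9 in CLP. Beside *Gm20388*, the most lost intervals were held by *Tenm4* (10), *Fgfr2* (10), a gene model of 2961 kb, *Auts2* (9), *Macrod2* (9), *Etv6* (8), *Slc8a1* (8) and *Zfhx3* (8). Without CLP replicate 1 these 7 genes held 16, 22, 17, 14, 19, 15 and 19 lost intervals in the same order. A further 8 genes held 7 each, among them *Plek*, *Meis1* and *Mecom*, of which the shortest, *Plek* and *Meis1*, completed the first 10. The order rested on CLP replicate 1, since without it 4 of these 10 genes remained among the first 10, led by *Gm20388*, *Fgfr2* and *Mecom*. *Slc8a1*, an ion exchanger gene of 365 kb, had none open in CD4SP and 8, 15 and 17 in CLP. *Plek*, which encodes pleckstrin of platelets and leukocytes, had 5 and 4 open in CD4SP and 11 in each CLP library, over 81.2 kb.

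Gained intervals also lay in clusters. When intervals of 1 class no more than 10 kb apart were joined, 33 clusters held at least 5 gained intervals and 3 held at least 5 lost ones, but 53 lost clusters reached 5 without CLP replicate 1. The largest gained cluster held 8 intervals over 23.4 kb in *Znrf1*, a ubiquitin ligase gene. Clusters of 7 lay in *Foxp1*, in *Ets1* (27.3 kb), in *Ubac2* and in a stretch of chromosome 15 from 61408309 to 61442248, 485297 bp from *A1bg*, the nearest protein-coding gene. A cluster of 6 at *Ccr8*, a chemokine receptor gene of T cells, spanned 18.3 kb, and others of 6 were at *Cd226*, *Lrig1* and *Glb1*. A further cluster of 6 lay on chromosome 12 from 107118200 to 107147469, 763 kb beyond the end of *Bcl11b* and 341163 bp from *3110018I06Rik*, the nearest gene. The 3 lost clusters of 5 were at *Cpeb2*, *Tnik* and *Mefv*, the last encoding pyrin of myeloid cells, and smaller ones were at *Plek*, *Mctp1*, *Akt2*, *Slc15a4* with *Glt1d1*, *Tas2r143* with *Tas2r135*, and *Tnip3*, and near *Clnk*.

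Markers of other cells were examined for both sorts. All 6 regulatory T cell genes held gained and no lost intervals, 11 in all. *Foxp3*, their defining factor, held 2 gained intervals, 1 of them at its outermost start, and a shared interval within 1 kb of the same start was higher in CD4SP, at 1523 and 2289 against 583, 1201 and 1329 (0.76 on the log2 scale, SE 0.225, limma adjusted p = 0.0270). The shared interval upstream of *Il2ra*, of the same list, was lower in CD4SP, at 389 and 446 against 1321, 3100 and 3100 (-2.70 on the log2 scale, SE 0.217, limma adjusted p = 0.000488). Of the 10 NK, NKT and innate lymphoid genes, 5 held more gained and 1 more lost intervals (9 and 2 in sum), with *Klrb1c* holding 4 gained ones and *Zbtb16* 2 (and 2 lost ones without CLP replicate 1). Myeloid genes held 4 gained and 0 lost over 10 genes, all at *Fcgr3* and *Itgam* (and 2 lost ones at *Itgam* without CLP replicate 1), and *Lyz2* and *Ctsg* had no interval open in any of the 5 libraries. Erythroid and megakaryocyte genes held 1 gained and 2 lost, 1 of the lost ones at *Pf4* (4 there without CLP replicate 1). The 6 thymic epithelial genes held 3 gained and 0 lost, and *Krt5* had none open. The part of such cells in the gained and lost intervals was not tested. The 10 housekeeping genes all had a shared start site (35.6% of all protein-coding genes), with 8 gained and 0 lost intervals around them. The lost intervals without CLP replicate 1 numbered 3 for the regulatory T cell genes, 5 for the innate lymphoid, 3 for the myeloid, 6 for the erythroid, 2 for the thymic epithelial and 4 for the housekeeping genes.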

How the data were processed

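Reads of 50 bp were aligned to mm10 by the authors with bowtie, allowing 2 mismatches, and peaks were called with MACS in each library by itself. The submitters' processing notes also name HOMER, which by the study's methods made the ChIP-seq tracks, and Picard, with no role. The MACS version and settings, whether duplicates were removed and whether read ends were shifted are not given in the sources used here. The deposited files hold each peak's position and a score, which is at least 120 and stops near 3100, and the methods state read numbers only as a range covering every library, so depth per library is unknown and no counting interval is given. Replicates are biological by the study's methods.

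Peak starts were converted to positions counted from 1. Peaks were merged and motifs counted in Python 3.11.15 (pandas 2.3.3, numpy 2.4.6, pysam 0.24.0), with genes from GENCODE M21 and sequence from GRCm38.p6. An interval took the highest score of its peaks in a library. Shared intervals were tested with limma 3.58.1 (trend) on quantile-normalized log2 scores, and shares per library by exact permutation in scipy 1.17.1, two-sided, on the difference of means. Interval classes and motifs planted in simulated data were recovered in full (100%), which checks the code alone. With 200 of 11731 intervals changed, limma called 12% of those changed by 1 log2 unit, 69% of those changed by 2, and 0.00867% of the unchanged ones. The simulation changed far fewer intervals than were called in the data and left out quantile normalization. Its rates therefore do not carry over to the calls reported above.

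Members and gene lists were chosen with earlier results of these data known. Named genes were the up to 6 members of each of the 15 lists with the most gained and lost intervals, members of the receptor, factor and B-lineage lists given by their counts, the 10 genes with the most gained and the 10 with the most lost intervals, the genes nearest to the 10 largest rises and falls of score among shared intervals, and the genes in the 10 largest clusters of each class. Alternatives were other numbers of peaks, overlaps, distances, windows, scalings and each library left out. The settings without CLP replicate 1 for motifs, clusters and NKT and ILCP libraries, and without scores at the upper limit, were added after the data were seen. The Runx1 immunoprecipitation libraries were not analysed here, and some genes that the rule names are not reported here.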

Additional observations from a re-analysis of the deposited data

How the results depend on the processing

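CLP replicate 1 set the size of the lost class. Without it the lost intervals numbered 15908 and the shared ones 17612, gained intervals were 39.18% of gained plus lost, 4994 genes held lost intervals alone and 2841 both, and 53 clusters held at least 5 lost intervals. Asking for 2 of 3 CLP libraries gave 16001 lost intervals and 38.99%. Leaving out each library in turn gave 10247 to 15329 gained, 5735 to 15908 lost and 11775 to 17612 shared intervals, 39.18% to 72.06% gained, 3602 to 7197 genes with gained intervals alone, 2090 to 4994 with lost ones alone and 1544 to 2841 with both kinds, and 607 to 3224 shared intervals higher in CD4SP and 990 to 2937 higher in CLP. An equal number of peaks gave 5587 gained intervals, and the higher scoring 50% gave 5087 gained, 2679 lost and 6196 shared. With 5 kb around genes, 919 held both kinds. Gaps of up to 5 kb left 10 gained and 0 lost clusters of at least 5, and gaps of up to 20 kb gave 101 and 8. Shared intervals over 1 kb from a start site gave 1049 and 1032 calls of 4515, and median centring gave 1780 and 2514. The replicate numbers 1 and 2 are names shared by CD4SP and CLP, and a pairing is not stated. Same-numbered libraries deviated with correlations of 0.0259 and 0.0188, where the deviations of the 2 CD4SP libraries mirror each other. In a fit with the replicate block, CLP replicate 3 had no CD4SP partner and so added nothing to the contrast. That fit gave 1942 and 1973 calls. NKT minus ILCP kept its sign for gained (57.21 to 61.86 points) and lost intervals (-31.91 to -18.36) with each NKT library, each ILCP library or CLP replicate 1 left out. The CD4SP libraries and CLP replicates 2 and 3 were not left out for this.

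Motif directions depended on the window. Over whole intervals only 2 of 20 motifs, TCF/LEF and CTCF, were more common in gained intervals, against 12 over the central 200 bp, and the gained minus lost difference turned to -6.18 points for GATA, -5.53 for CAGGTG, -7.99 for AP-1, -9.55 for NFAT, -1.22 for EGR, -3.50 for KLF, -8.63 for MEIS, -5.43 for MEF2, -6.11 for POU and -0.588 for NRF1. Lost intervals are the wider class. Far from start sites it turned to -0.144 for AP-1 and -0.011 for MEF2, and with GC standardized to -0.138, -0.17 and -0.045 for AP-1, NFAT and MEF2. Over whole peaks of each library, 5 motifs separated the groups in place of 10, and leaving out a library gave 10 to 15. CD4SP minus CLP turned over whole peaks to -1.17 for AP-1, -1.26 for NFAT, -0.194 for EGR, -0.268 for KLF, -1.14 for MEIS, -0.686 for MEF2 and -0.943 for POU. With equal numbers of peaks it turned to -0.159 for AP-1, -0.336 for NFAT, 0.104 for IRF and -0.149 for MEF2, and far from start sites to -0.0653 for AP-1. Leaving out a library gave -0.00633 to 0.189 for POU, -0.0085 to 0.09 for AP-1, -0.055 to 0.605 for NFAT and -0.007 to 0.106 for MEF2, the lowest without CD4SP replicate 1 for POU and without CLP replicate 1 for the others. None of the motifs whose CD4SP minus CLP turned had separated the groups over all peaks. EGR and KLF letters separated them with equal numbers of peaks, and EGR, KLF, IRF and NFAT letters far from start sites. The cause of these turns was not tested.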

Other observations

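Immunoglobulin loci gave values outside the gene lists, and these regions were chosen after their values were seen. The heavy chain locus *Igh*, on chromosome 12 from 113254830 to 116010093, held 57 merged intervals, of which 28 were CD4SP-gained and 1 was CLP-lost (7 without CLP replicate 1). In the CD4SP libraries 44 and 38 of them were open, in the CLP libraries 1, 14 and 14, in the NKT libraries 28 and 26 and in the ILCP libraries 1 and 3. Both CD4SP libraries lay above the CLP, NKT and ILCP libraries. Of the 57 intervals, 35 lay within 1 kb of a V segment, and 23 of these were gained and 0 lost. The gained intervals of *Igh* had median ranks from the top of 61.8% in CD4SP replicate 1 and 73.2% in replicate 2, against 61.6% and 57.7% over all gained intervals. V segments resemble each other, and how reads that fit several of them were placed is not given in the sources used here. The light chain loci were unlike it, with 0 gained and 2 lost of 8 intervals at *Igk* and 0 gained and 1 lost of 2 at *Igl* (3 and 2 lost without CLP replicate 1).

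At *Il2ra*, the high-affinity interleukin 2 receptor chain of activated and regulatory T cells and of early thymocytes, 2 intervals were gained and 0 lost (1 without CLP replicate 1), with 9 and 8 open in CD4SP and 4, 6 and 6 in CLP. *Cd96*, an adhesion receptor of T and NK cells, had a shared interval that was lower in CD4SP, at 372 and 625 against 1392, 2960 and 2560 (-2.31 on the log2 scale, SE 0.245, limma adjusted p = 0.000616). A shared interval upstream of *Trat1* was lower in CD4SP as well, at 235 and 212 against 605, 1390 and 1437 (-2.30 on the log2 scale, SE 0.286, limma adjusted p = 0.00109), beside 7 gained intervals in the same gene's range. In *Fyb*, an adaptor of T cell signalling, shared intervals went both ways. One of its introns held an interval at 1102 and 1126 in CD4SP against 150, 190 and 248 in CLP (2.30 on the log2 scale, SE 0.342, limma adjusted p = 0.00196), and another held one at 315 and 413 against 244, 1329 and 1374 (-1.28 on the log2 scale, SE 0.367, limma adjusted p = 0.0238), where CLP replicate 1 lay below both CD4SP libraries before normalization. These intervals were chosen after their values were seen.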
